A study of Mus musculus with 12 samples.

Results

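The genes described here are 5 STAT transcription factors (Stat2, Stat3, Stat5a, Stat5b and Stat6) and 4 inhibitors of the SOCS family (Socs1, Socs2, Socs3 and Cish) in mouse bone marrow-derived macrophages (BMDMs). They were chosen by name, as the rows of these 9 genes among the 35275 Ensembl genes counted in each library. All 9 passed the filter on low counts and were among the 12849 genes tested. RNA was sequenced from 12 libraries in 3 groups of 4, numbered 1 to 4 in each group. The groups were DMSO, the solvent control, olaparib, a PARP inhibitor, and MNA (methyl-nicotinamide, a derivative of NAD). The cells of all groups were labelled wild type and had been grown for 6 days in M-CSF, IL-4 and IL-10, which drive an M2 phenotype, so that no group was free of the cytokines that act through these factors. The labels give no dose for either agent and do not tie a library to a donor mouse.

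Cytokines signal through receptors bound to Janus kinases (JAKs), which phosphorylate STAT proteins. Phosphorylated STATs pair, enter the nucleus and bind DNA. In macrophages IL-4 acts mainly through STAT6, IL-10 through STAT3, growth factors of the GM-CSF family through STAT5A and STAT5B, and type I interferons through STAT2, a part of the complex ISGF3. SOCS proteins and CISH are induced by STATs and shut the same receptors and kinases off, so that their transcripts are often read together with those of the factors. Transcript levels do not show phosphorylation, on which STAT activity depends.

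To show what DNA lies in front of these genes, the promoters of 8 members (10 promoters, 250 bases before to 50 after the start, RefSeq, GRCm38.p6) were searched on both strands for the STAT palindrome TTCNNNGAA, the wider palindrome TTCNNNNGAA that STAT6 prefers, and the core of the interferon-stimulated response element bound by ISGF3, GAAANNGAAA. Of all 32851 promoters in the table, 8.30%, 6.95% and 3.44% held them. The interferon core was found in the promoters of Stat2 and Socs1, the wider palindrome in that of Stat2, and the STAT palindrome in those of Socs3 and Cish. The promoters of Stat3, Stat5a, Stat5b and Stat6 held none of these letters in this window, and Socs2 was not searched. The sequences below are those that hold a match, 5′ to 3′ on the strand of the gene, with the matches in capitals. For Stat2 and Socs1 the 250 bases before the RefSeq start are shown, and for Socs3 and Cish a short stretch around the matches.
Stat2, chr10:128270248-128270497, plus strand: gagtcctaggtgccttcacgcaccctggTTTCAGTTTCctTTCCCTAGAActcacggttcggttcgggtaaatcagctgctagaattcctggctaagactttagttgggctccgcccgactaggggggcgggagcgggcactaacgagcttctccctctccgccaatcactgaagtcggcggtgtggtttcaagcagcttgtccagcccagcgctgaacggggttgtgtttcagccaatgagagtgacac
Socs1, chr16:10785537-10785786, minus strand: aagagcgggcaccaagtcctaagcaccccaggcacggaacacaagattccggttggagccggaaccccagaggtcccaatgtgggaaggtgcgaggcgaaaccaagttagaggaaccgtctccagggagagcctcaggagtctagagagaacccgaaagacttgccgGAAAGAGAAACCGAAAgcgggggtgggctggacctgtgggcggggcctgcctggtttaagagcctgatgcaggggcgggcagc
Socs3, chr11:117969501-117969530, minus strand: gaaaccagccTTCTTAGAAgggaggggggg
Cish, chr9:107296659-107296678, plus strand: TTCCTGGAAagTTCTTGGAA

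In the Stat2 promoter the interferon core lies on the opposite strand, from 222 to 213 bases before the start, and the wider palindrome follows it from 210 to 201 bases before the start. The Socs1 promoter holds 2 interferon cores that overlap, from 83 to 74 and from 77 to 68 bases before the start. The Socs3 palindrome lies from 154 to 146 bases before the RefSeq start, inside the span that GENCODE gives the gene. The pair in Cish covers bases 1 to 9 and 12 to 20 after the RefSeq start, which also lies inside the GENCODE span of its gene (107296026 to 107302784). The RefSeq start of Stat2 lies before the GENCODE start (128270559). These are matches of letters and were not tested as binding sites.

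Libraries held 21146291 to 31446849 counts on genes, and the depths of the groups overlapped. MNA replicate 2 stood apart from its group. On the first 2 principal components (49.8% and 24.9% of the variance) it lay with the DMSO libraries, and its level was within the DMSO range in 7 of the 9 genes and outside the range of the other MNA libraries in 7 of 9. In the tests it stayed in the MNA group, its value for each of the 9 genes is named apart from those of MNA replicates 1, 3 and 4 or lies within a stated range, and the counts of genes called in each comparison are also given without it. With it in the fit, edgeR's common dispersion was 0.0333, and without it 0.0123. Since that spread is shared by the groups, the library also bears on the comparison of olaparib with DMSO. Reads of mitochondrial genes made up 1.04% to 1.35% of counts with DMSO, 1.60% to 1.83% with olaparib, 1.61% to 2.26% in MNA replicates 1, 3 and 4, and 1.14% in MNA replicate 2.

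Levels below are CPM (counts scaled to library totals) after TMM normalization, and changes are log2 fold changes from edgeR's quasi-likelihood test. The threshold for calling a gene was an adjusted p (Benjamini-Hochberg, over all tested genes) of 0.05. In this bulk RNA, fewer cells of a type and less RNA per cell cannot be told apart. The labels do not say that the libraries of a group came from separate animals, so that p-values measure the spread between libraries.

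**Figure D1:**
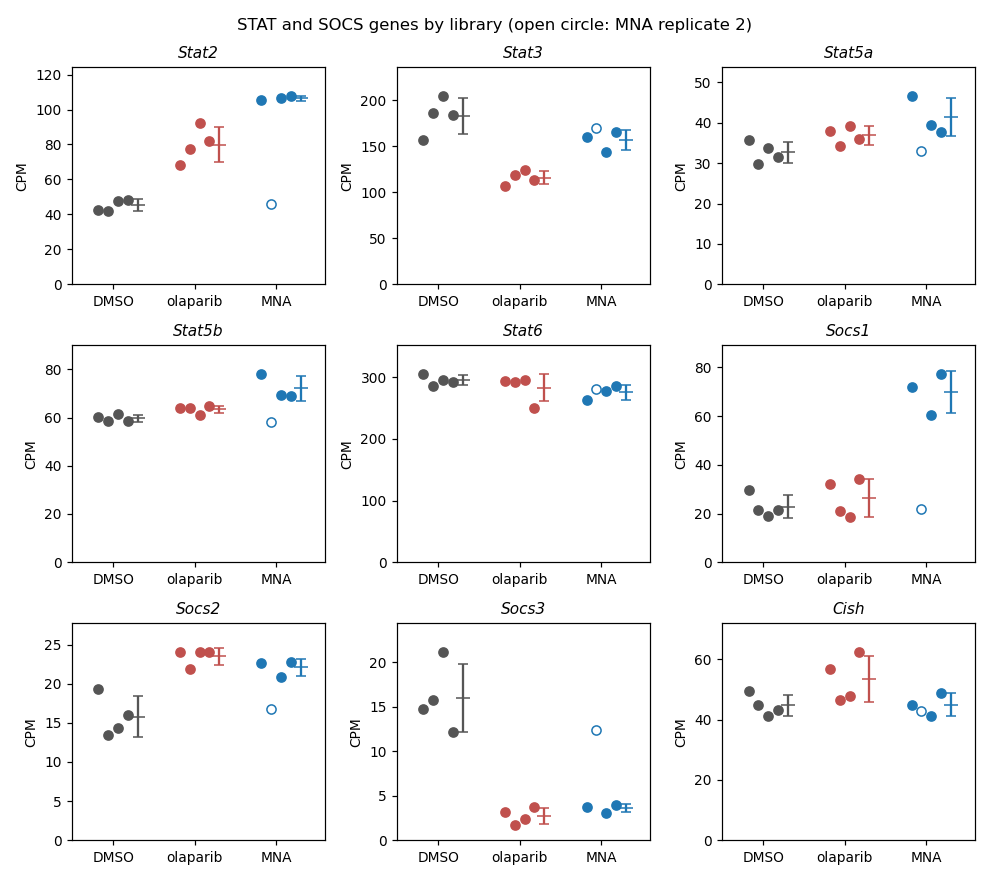
CPM of the 9 genes (vertical axes, each from 0) in the DMSO, olaparib and MNA libraries, 1 point per library, with the mean ± SD beside each group; MNA replicate 2 is the open circle and is left out of the MNA mean. Its Stat2 (46.1 CPM), Socs1 (22.1 CPM) and Socs3 (12.3 CPM) points lie at the height of the DMSO points, while MNA replicates 1, 3 and 4 lie apart from them.

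To compare levels between genes, CPM was divided by the length of each gene's exons. With DMSO, Stat6 was the highest of the 9 genes at 67.1 ± 1.83 CPM per kb (SD, n = 4). Stat3 followed at 19.2 ± 2.10 and Stat5b at 10.8 ± 0.257 CPM per kb, and the libraries of these did not overlap with their neighbours in the order. Socs1 (7.86 CPM per kb), Stat2 (7.62), Cish (6.96), Socs3 (5.51) and Stat5a (4.58) came next, and the libraries of each neighbouring pair among them overlapped. Socs2 was lowest at 1.66 ± 0.275 CPM per kb. With the longest transcript as the length, Stat2 (10.3 CPM per kb), Cish (9.51) and Stat5a (8.26) lay above Socs1 (7.86).

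With olaparib, Stat2 (13.5 ± 1.68 CPM per kb) stood second after Stat6, although its libraries overlapped with those of Stat3 (12.1 ± 0.749). Socs3 was last at 0.938 ± 0.302 CPM per kb, below every library of Socs2. With the longest transcript as the length, Stat3 (19.15 CPM per kb) stood above Stat2 (18.2) with olaparib. In MNA replicates 1, 3 and 4, Socs1 was second at 24.1 ± 3.0 CPM per kb (n = 3), Stat2 followed at 17.97 ± 0.225 and Socs3 last at 1.24 ± 0.149, each without overlap with its neighbours. With the longest transcript this order turned as well, to Stat3 (25.9 CPM per kb), Stat2 (24.2) and Socs1 (24.1) after Stat6. Stat6 held the first place in each of the 3 groups.

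**Figure D2:**
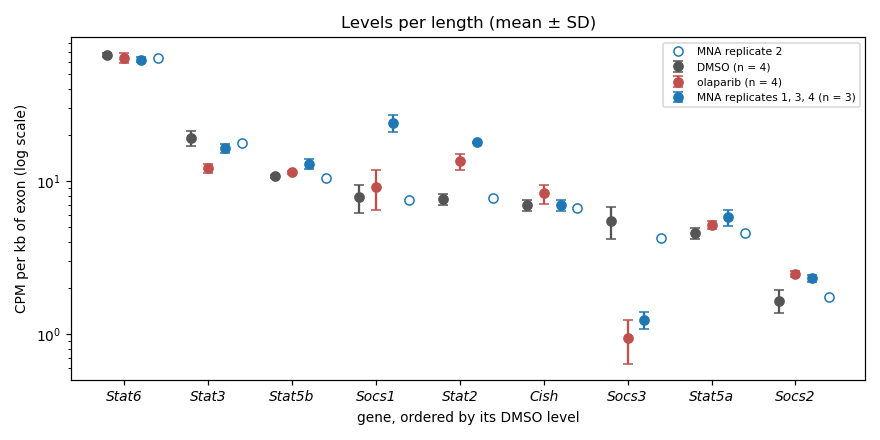
Mean level per length (CPM per kb of exon, log axis) of the 9 genes, ordered by their DMSO level, with SD bars for DMSO (n = 4), olaparib (n = 4) and MNA replicates 1, 3 and 4 (n = 3) and an open circle for MNA replicate 2. Stat6 is highest with each treatment, Socs3 falls to the lowest place with olaparib and in these MNA libraries, and Socs1 and Stat2 come next after Stat6 in these MNA libraries by exon length, but after Stat3 by the longest transcript, which is not plotted.

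The first question was which of these genes changed when BMDMs were differentiated with olaparib. Stat2 and Socs2 rose and Stat3 and Socs3 fell, and in each of these 4 genes all olaparib libraries lay on one side of all DMSO libraries. The other 5 genes were not called. Of all tested genes, 27.0% were called (14.3% up and 12.8% down) and 41.0% did not overlap between these groups, so that 4 of 9 genes without overlap is a share near that of all genes. Without MNA replicate 2 in the fit Cish was called as well, so that 3 of the 9 were up and 2 down, where 43.7% of all genes were called (22.5% up and 21.2% down) and 40.7% did not overlap.

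Socs3, which blocks receptors that use gp130 and with them STAT3, had the steepest fall of the 9. The gene (ENSMUSG00000053113) lies on chromosome 11 from 117966079 to 117970047, on the minus strand of GRCm38. DMSO replicates 1 to 4 held 14.8, 15.7, 21.2 and 12.1 CPM, and the olaparib replicates 3.11, 1.69, 2.36 and 3.69 CPM. Every olaparib library lay far below the lowest DMSO library. The log2 fold change was −2.55 (SE 0.42, adjusted p = 0.00186), a level 5.85 times lower. Over the alternative fits it ran from −2.74 to −2.38, and the call was kept in each.

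Stat3 (ENSMUSG00000004040, chromosome 11, 100885098 to 100939540, minus strand), the factor that IL-10 and IL-6 use, fell as well. Its DMSO libraries held 156, 186, 205 and 184 CPM, and its olaparib libraries 107, 118, 124 and 114 CPM. The groups did not overlap, and DMSO replicate 1 was the lowest of its group. The change was −0.66 (SE 0.08, adjusted p = 4.06e-04), the smallest adjusted p of the 9 genes in this comparison.

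Stat2 (ENSMUSG00000040033, chromosome 10, 128270559 to 128292849, plus strand) stood at 42.4, 41.9, 47.8 and 48.4 CPM with DMSO and at 68.2, 77.3, 92.1 and 82.1 CPM with olaparib. The lowest olaparib library was above the highest DMSO library. The log2 fold change was 0.82 (SE 0.22, adjusted p = 0.0162), or 1.77 times the DMSO level. The SE shrank to 0.08 with the same fold change when MNA replicate 2 was left out of the fit (adjusted p = 3.72e-06).

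Socs2 (ENSMUSG00000020027, chromosome 10, 95385362 to 95417180, minus strand), an inhibitor of growth hormone signaling and a target of STAT5, had 19.4, 13.4, 14.4 and 16.0 CPM with DMSO and 24.0, 21.9, 24.1 and 24.0 CPM with olaparib. Its olaparib libraries lay close together and above each DMSO library. It rose by 0.58 on the log2 scale (SE 0.12, adjusted p = 0.00624).

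Cish (ENSMUSG00000032578, chromosome 9, 107296026 to 107302784, plus strand), another STAT5 target, stood near the threshold. It had 49.6, 44.8, 41.2 and 43.0 CPM with DMSO and 56.8, 46.4, 48.0 and 62.5 CPM with olaparib, and olaparib replicates 2 and 3 lay within the DMSO range. The change was 0.26 (SE 0.10, adjusted p = 0.0701). With the replicate number as a block, which pairs the olaparib and DMSO libraries, the adjusted p was 0.0401, and without MNA replicate 2 it was 0.0380. Cish shares 10.4% of its 31-base words with other genes, most of them (6.54%) with the antisense gene Gm17041, which held 0 counts in every library.

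Stat5a (ENSMUSG00000004043, chromosome 11, 100859351 to 100885169, plus strand) and Stat5b (ENSMUSG00000020919, chromosome 11, 100780731 to 100850724, minus strand) encode close copies of one factor. Stat5a held 29.8 to 35.7 CPM with DMSO and 34.2 to 39.3 CPM with olaparib (log2 fold change 0.17, SE 0.10, adjusted p = 0.207). With the replicate block its adjusted p was 0.0761, and with the block and without MNA replicate 2 it was called (0.0307). For Stat5b the ranges were 58.4 to 61.5 and 61.3 to 64.7 CPM (0.09, SE 0.08, adjusted p = 0.411). In both genes 3 of 4 olaparib libraries lay above every DMSO library. Stat5a shares 11.5% of its words with Stat5b and Stat5b 15.1% with Stat5a, so that reads from the shared stretches are uncertain.

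Stat6 (ENSMUSG00000002147, chromosome 10, 127642986 to 127660957, plus strand), the IL-4 factor, held 287 to 306 CPM with DMSO and 251 to 296 CPM with olaparib. Olaparib replicate 4 was the low library, at 251 CPM, and the other 3 lay within the DMSO range. The log2 fold change was −0.06 (SE 0.06, adjusted p = 0.504).

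Socs1 (ENSMUSG00000038037, chromosome 16, 10782240 to 10785536, minus strand), the inhibitor of JAKs that is induced by interferons and IL-4, had 29.6, 21.3, 18.8 and 21.6 CPM with DMSO and 32.0, 21.02, 18.8 and 34.2 CPM with olaparib. The groups overlapped, with replicates 2 and 3 of both at 18.8 to 21.3 CPM. The log2 fold change was 0.22 (SE 0.33, adjusted p = 0.645).

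**Figure D3:**
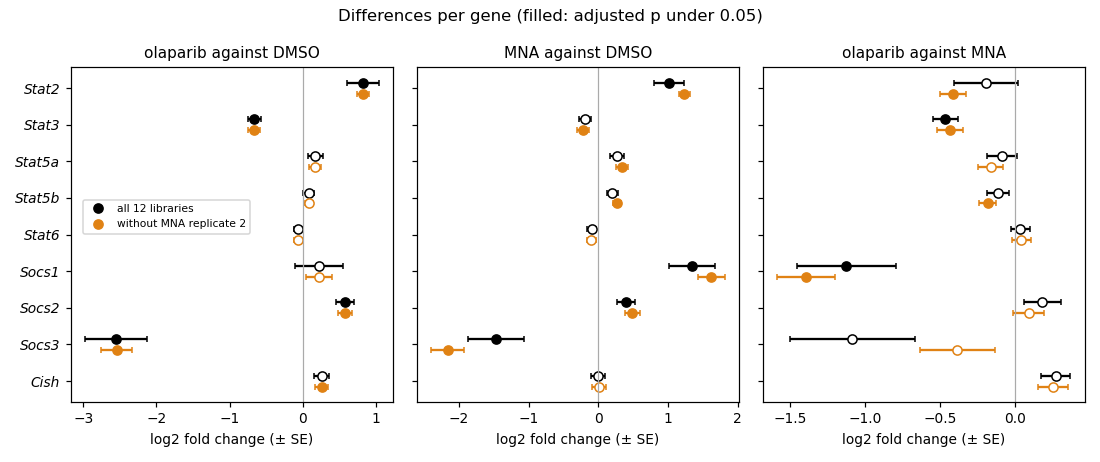
Log2 fold change ± SE of the 9 genes in the 3 comparisons, from all 12 libraries (black) and without MNA replicate 2 (orange); filled points have an adjusted p under 0.05. Socs3 is the lowest point against DMSO with both treatments, Socs1 moves apart from 0 with MNA and between the treatments, and the orange bars of Stat2, Socs1 and Socs3 are shorter than the black ones.

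The next question was what MNA did against the same DMSO libraries. With MNA, Stat2, Socs1 and Socs2 rose and Socs3 fell. Of all tested genes, 28.6% were called (16.3% up and 12.3% down) and 12.4% did not overlap. None of these 4 genes was free of overlap, because MNA replicate 2 lay within the DMSO range in each of them. In a fit of MNA and DMSO without the olaparib libraries, edgeR called 0 of 12379 genes, although 4728 had an unadjusted p under 0.05, and the adjusted p of these 4 genes lay between 0.0640 and 0.0901. With DESeq2 on the 12 libraries the 4 calls were kept.

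Socs1 had the largest rise of the 9 genes. MNA replicates 1, 3 and 4 held 72.0, 60.4 and 77.5 CPM, and MNA replicate 2 held 22.1 CPM. The first 3 lay above every DMSO and olaparib library, and replicate 2 lay within the DMSO range. The log2 fold change was 1.35 (SE 0.33, adjusted p = 0.0192) with the 4 MNA libraries and 1.62 (SE 0.19, adjusted p = 9.27e-06) without replicate 2. With any of DMSO replicates 2 and 3 or MNA replicates 1, 3 and 4 left out, the adjusted p was 0.0503 to 0.0626 and the call was lost.

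Stat2 held 105, 106 and 108 CPM in MNA replicates 1, 3 and 4 and 46.1 CPM in replicate 2. The former had a coefficient of variation of 1.25% and lay above every olaparib library, while replicate 2 lay within the DMSO range. The change was 1.02 (SE 0.22, adjusted p = 0.0144), and 1.24 (SE 0.09, adjusted p = 6.36e-08) without replicate 2. The call was lost at the margin when MNA replicate 3 was left out (adjusted p = 0.05002, log2 fold change 0.94).

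Socs3 stood at 3.74, 3.09 and 3.90 CPM in MNA replicates 1, 3 and 4 and at 12.3 CPM in replicate 2. The former lay far below the DMSO libraries, and replicate 2 was above the lowest of these. The change was −1.46 (SE 0.40, adjusted p = 0.0244), and −2.16 (SE 0.23, adjusted p = 4.07e-06) without replicate 2. The call was lost (adjusted p 0.0542 to 0.0761) when 1 of the libraries DMSO 2, DMSO 3, MNA 1, MNA 3 or MNA 4 was left out.

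Socs2 held 22.7, 20.8 and 22.8 CPM in MNA replicates 1, 3 and 4 and 16.7 CPM in replicate 2, against 13.4 to 19.4 CPM with DMSO. It rose by 0.40 on the log2 scale (SE 0.12, adjusted p = 0.0343), and by 0.49 without replicate 2 (adjusted p = 0.00142). Its call was lost without any 1 of DMSO replicates 2, 3 and 4 or MNA replicates 1, 3 and 4, with an adjusted p of up to 0.0998.

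The other STAT factors moved less. Stat3 held 160, 144 and 165 CPM in MNA replicates 1, 3 and 4 and 170 CPM in replicate 2, so that 3 of the 4 lay above DMSO replicate 1 (log2 fold change −0.19, SE 0.08, adjusted p = 0.0969). Stat5a held 46.7, 39.5 and 37.8 CPM, and 32.9 CPM in replicate 2 (0.26, SE 0.10, adjusted p = 0.0626). Stat5b held 78.2, 69.4 and 68.9 CPM, and 58.3 CPM in replicate 2 (0.20, SE 0.08, adjusted p = 0.0609). None of these was called with the 12 libraries. Without MNA replicate 2, Stat5a (0.34, adjusted p = 0.00392), Stat5b (0.27, adjusted p = 8.70e-04) and Stat3 (−0.23, adjusted p = 0.0401) were called. In that fit 7 of the 9 genes were called (5 up and 2 down), where 54.1% of all genes were (27.2% up and 26.9% down), and 7 did not overlap, where 54.2% of all genes did not.

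Stat6 had 263, 277 and 286 CPM in MNA replicates 1, 3 and 4 and 282 CPM in replicate 2, which all lay just below the lowest DMSO library at 287 CPM. It was the gene without overlap among the 9, and its change was −0.09 (SE 0.06, adjusted p = 0.276), too small for a call. Cish held 41.2 to 48.7 CPM with MNA and 41.2 to 49.6 CPM with DMSO (log2 fold change −0.01, SE 0.10, adjusted p = 0.955).

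The treatments were then compared with each other, a contrast of levels that does not use those of DMSO, although the DMSO libraries entered the shared spread. Of the 9 genes, Stat3 and Socs1 were lower with olaparib than with MNA and 0 were higher by edgeR (1 at an unadjusted p under 0.05, and 0 with DESeq2). Of all genes 21.8% were called (10.9% lower and 10.9% higher), and 21.2% did not overlap. Stat3 was lower by 0.47 on the log2 scale with no overlap, its highest olaparib library at 124 CPM and its lowest MNA library at 144 CPM (SE 0.08, adjusted p = 0.00279). MNA replicate 2 did not decide this, since the difference was −0.44 without it (adjusted p = 0.00106). Stat3 was the one gene of the 9 without overlap here.

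Socs1 differed by −1.13 (SE 0.33, adjusted p = 0.0295), and by −1.40 without MNA replicate 2 (SE 0.19, adjusted p = 5.84e-05), when each olaparib library lay below each MNA library. Its call was lost without olaparib replicate 2 or 3 or MNA replicate 1, 3 or 4 (adjusted p 0.0631 to 0.0825), and also in a fit of the olaparib and MNA libraries alone (adjusted p = 0.0731). For Socs3 the difference was −1.09 (SE 0.42, adjusted p = 0.0834) with the 12 libraries and −0.39 (SE 0.25, adjusted p = 0.233) without MNA replicate 2. DESeq2 called the former (adjusted p = 0.0303).

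Stat2 was not called between the treatments with the 12 libraries (log2 fold change −0.19, SE 0.21, adjusted p = 0.557). Without MNA replicate 2 it was lower with olaparib by 0.41 (SE 0.08, adjusted p = 0.00141), and Stat5b by 0.19 (SE 0.05, adjusted p = 0.0142). That fit called 4 of the 9 genes lower with olaparib and 0 higher (1 at an unadjusted p under 0.05), where it called 20.7% and 21.5% of all genes (42.3% in either direction). The same 4 did not overlap, where 46.2% of all genes did not. Socs2 differed by 0.18 (SE 0.12, adjusted p = 0.324), Stat5a by −0.09 (SE 0.10, adjusted p = 0.559) and Stat6 by 0.03 (SE 0.06, adjusted p = 0.761). Cish was 0.27 higher with olaparib and was not called (SE 0.10, adjusted p = 0.0731).

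Both treatments were set against the same 4 DMSO libraries, so that their changes are not independent of each other. Side by side, the log2 fold changes with olaparib and MNA were 0.82 and 1.02 for Stat2, 0.58 and 0.40 for Socs2, and −2.55 and −1.46 for Socs3. Those of Stat3 were −0.66 and −0.19, and those of Socs1 0.22 and 1.35.

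Genes with the profile most like that of each called member over the 12 libraries were sought by Pearson r of log2 CPM, among 9746 tested genes that averaged 100 counts or more. These libraries share their groups and the position of MNA replicate 2, so that r describes the shared pattern of groups. For Stat2 the 3 nearest were Abcc3 (r = 0.994), Trim30a (0.993) and Pcyox1 (0.992). Abcc3 stood at 8.48 CPM on average with DMSO, 20.7 with olaparib, 33.9 in MNA replicates 1, 3 and 4 and 9.38 in MNA replicate 2, the same order as Stat2. For Stat3 they were Xpr1 (0.965), Adnp2 (0.952) and Mllt3 (0.946), and for Socs1 Cd14 (0.986), Pde4b (0.977) and Eid1 (0.959). For Socs2 they were Gsdmd (0.965), Zc3h3 (0.965) and Capn5 (0.959), and for Socs3 Msi2 (0.976), Emp1 (0.967) and Pomt2 (0.960). Between the members, r was 0.865 for Stat5a with Stat5b, −0.872 for Socs2 with Socs3, −0.851 for Stat2 with Socs3 and 0.812 for Stat3 with Socs3.

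The other genes of the pathway are given from lists of known roles, starting with the ligands. Their counts stand beside 27.0% of all genes called with olaparib and 28.6% with MNA, or 43.7% and 54.1% without MNA replicate 2. Of 14 cytokine genes, 4 were expressed enough to be tested, and 0 were called with olaparib by edgeR or by DESeq2 (0 at an unadjusted p under 0.05). When MNA replicate 2 was left out, 1 rose with olaparib, and 2 rose and 1 fell with MNA. With MNA and the 12 libraries, Csf1, the gene of M-CSF, had a log2 fold change of 0.85 (adjusted p = 0.0142), from 18.6 ± 2.52 CPM to 36.6 ± 3.34 in MNA replicates 1, 3 and 4 and 23.5 in replicate 2. Ifng, the gene of interferon gamma, was called higher with MNA (adjusted p = 0.0192) at a very low level, 1.24 ± 0.133 CPM in those 3 libraries against at most 0.134 with DMSO, and 0.107 in MNA replicate 2. Ifnb1, Il13 and Il3 had 0 counts in every library.

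Of 18 tested receptor genes, 4 rose and 3 fell with olaparib, and 8 rose and 1 fell with MNA. These counts were 8 and 3 with olaparib and 12 and 3 with MNA when MNA replicate 2 was left out. Ifngr1, a chain of the interferon gamma receptor, rose with olaparib by 0.60 (adjusted p = 0.00269) and Csf2rb2, a beta chain for IL-3, fell by 0.49 (adjusted p = 0.00308). With MNA, Il13ra1, which pairs with Il4ra to bind IL-4 and IL-13, rose by 1.82 (adjusted p = 0.0142) and Csf1r, the M-CSF receptor, by 1.45 (adjusted p = 0.0153). Csf1r stood at 467 CPM in MNA replicate 2, within the DMSO range. Il13ra1 had 6.07 ± 0.528 CPM with DMSO, 26.0 ± 1.97 in MNA replicates 1, 3 and 4 and 7.84 in replicate 2.

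Of the 4 JAK genes, Tyk2, the kinase of the type I interferon receptor, rose with both treatments, by 0.28 (adjusted p = 0.0440) with olaparib and 0.34 (adjusted p = 0.0251) with MNA. Jak3, which is bound to the common gamma chain, fell by 0.23 with olaparib (adjusted p = 0.0475). Of the 4, 2 rose and 1 fell with olaparib and 2 rose with MNA in the fit without MNA replicate 2. Socs6, another SOCS gene, fell by 0.64 with MNA (adjusted p = 0.0202) and by 0.79 without MNA replicate 2. Of 10 phosphatases, PIAS proteins and other inhibitors, 1 rose and 3 fell with olaparib and 4 rose and 1 fell with MNA. In the fit without MNA replicate 2, 4 rose and 4 fell with olaparib, and 6 rose and 1 fell with MNA. Ptpn1 rose by 0.48 (adjusted p = 0.0144) and Ptpn2 fell by 0.42 (adjusted p = 0.00226) with olaparib. Ptpn6, the gene of the phosphatase SHP-1, rose by 1.25 (adjusted p = 0.0142) and Pias1 by 0.43 (adjusted p = 0.0160) with MNA. Ptpn6 stood at 56.8 CPM in MNA replicate 2, within the DMSO range.

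Transcripts of known STAT targets were read beside the factors. Of 20 ISGF3 targets, which are the genes of the interferon response, 15 rose and 0 fell with olaparib by edgeR (18 and 0 at an unadjusted p under 0.05, and 18 and 0 with DESeq2). All 20 changes were above 0, and their median log2 fold change was 1.27 against 0.00 over all genes. With MNA 7 rose and 1 fell, with a median of 0.46. The fit without MNA replicate 2 had 20 that rose with olaparib, and 11 that rose and 3 that fell with MNA. Oasl2 had 13.5 ± 2.44 CPM with DMSO and 48.5 (range 32.5 to 56.9) with olaparib (log2 fold change 1.84, adjusted p = 3.09e-04), and Xaf1 rose by 0.80 (adjusted p = 7.75e-04). Ifit2 rose with MNA by 2.49 and Ifit3 by 2.19 (adjusted p = 0.0142 for both). Oas1a, named after its values were seen, was the one that fell with MNA (−0.74, adjusted p = 0.0182). Between the treatments, 10 of the 20 were higher with olaparib and 0 lower by edgeR (12 and 1 at an unadjusted p under 0.05, and 9 and 1 with DESeq2). Stat2 itself was higher in MNA replicates 1, 3 and 4 than in every olaparib library. Without MNA replicate 2, 11 were higher and 2 lower with olaparib. Of the 14 with a promoter in the RefSeq table, 6 (42.9%) held the interferon core GAAANNGAAA, against 3.44% of all promoters. The shares are not of like units, since a listed gene counted if any of its promoters matched, while all promoters were counted singly.

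Of 16 tested STAT6 targets, the alternative activation genes that IL-4 induces, 2 rose (Ccl17 and Egr2) and 2 fell (Ccl24 and Pparg) with olaparib, while Stat6 was not called. With MNA replicate 2 left out, 4 rose and 5 fell with olaparib. Ccl24, an eosinophil chemokine, fell by 2.73 (adjusted p = 1.34e-04) and Pparg, a nuclear receptor, by 1.14 (adjusted p = 0.00352). With MNA 0 rose and 5 fell by edgeR (0 and 10 at an unadjusted p under 0.05, and 0 and 9 with DESeq2). Those that fell were Retnla, Mrc1, Klf4, Pparg and Cdh1, and the median over the list was −0.83. Mrc1, the mannose receptor, fell by 1.49 (adjusted p = 0.0210), from 679 ± 125 CPM to 149 ± 31.4 in MNA replicates 1, 3 and 4, and Klf4 by 1.33 (adjusted p = 0.0192). Mrc1 stood at 519 CPM and Klf4 at 111 CPM in MNA replicate 2. Without that library 12 of the 16 fell and 0 rose, and the median was −1.02. Arg1, named after its values were seen, stood at 555 ± 123 CPM with DMSO, 688 ± 262 with olaparib, 11.4 ± 1.35 in MNA replicates 1, 3 and 4 and 359 in MNA replicate 2, and was not called with MNA with the 12 libraries (log2 fold change −2.50, adjusted p = 0.0767). Without MNA replicate 2 it was called, at −5.60 (adjusted p = 1.16e-08).

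Of 13 tested STAT3 targets, 1 rose (Il4ra) and 3 fell (Nfil3, Zfp36 and Pim1) with olaparib, a share near that of all genes with the 12 libraries. Of the 13 changes, 11 were below 0 and 2 above, with a median of −0.25. Leaving out MNA replicate 2, 2 rose and 7 fell, where 43.7% of all genes were called. Pim1, a kinase gene, fell by 0.48 (adjusted p = 0.00467) and Zfp36, which encodes tristetraprolin, by 0.46 (adjusted p = 0.00536). With MNA 2 rose (Il4ra and Zfp36) and 5 fell (Bcl3, Sbno2, Fos, Cebpb and Cebpd). Zfp36 rose by 0.41 (adjusted p = 0.0168) and Cebpb fell by 0.72 (adjusted p = 0.0197). The MNA counts without its replicate 2 were also 2 and 5. Of 9 tested STAT5 targets, a list that holds Socs2 and Cish, 2 rose (Socs2 and Ccnd2) and 1 fell (Pim1) with olaparib. With MNA 3 rose (Socs2, Ccnd2 and Il2ra) and 1 fell (Bcl6), and Ccnd2, the cyclin D2 gene, rose by 2.56 (adjusted p = 0.0142). It stood at 8.88 CPM in MNA replicate 2, just above the DMSO libraries. Without that library, 6 of the STAT5 targets rose and 2 fell with olaparib, and 3 rose and 2 fell with MNA.

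**Figure D4:**
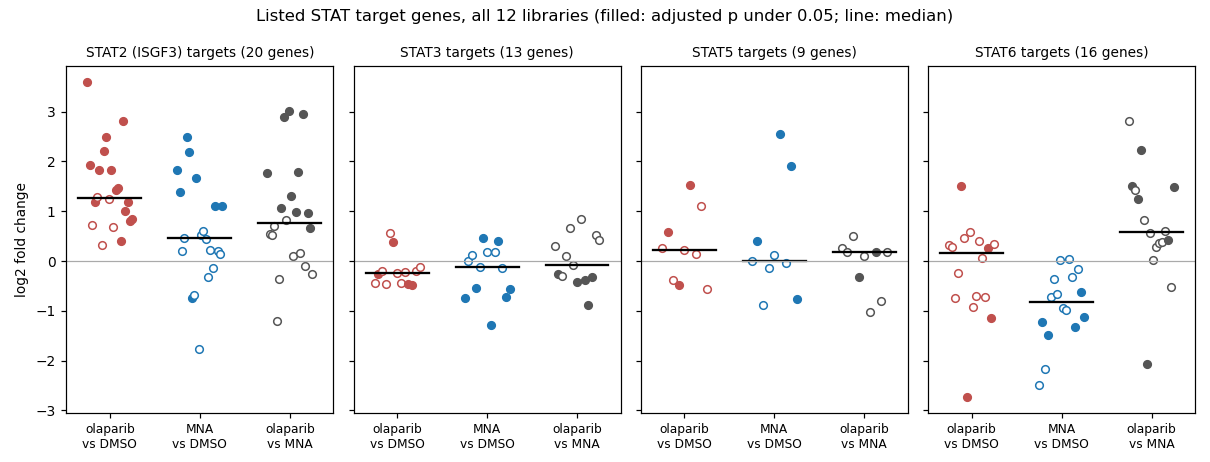
Log2 fold changes of the tested genes in the 4 lists of STAT targets (1 point per gene, 12 libraries), for both treatments against DMSO and for olaparib against MNA; filled points have an adjusted p under 0.05 and the bar is the median. All 20 ISGF3 targets lie above 0 with olaparib (median 1.27), and 14 of the 16 STAT6 targets lie below 0 with MNA (median −0.83).

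Markers of the cell types that such cultures could hold were summed. The 10 macrophage markers summed to 4839 to 6083 CPM with DMSO, 9241 to 11040 with olaparib, 6011 to 7904 in MNA replicates 1, 3 and 4 and 4447 in MNA replicate 2, so that the labelled cell type was seen in each group. Beside Stat2 and Socs1, 8 markers of T and NK cells summed to 2.68 to 5.33 CPM with DMSO, 11.7 to 21.7 with olaparib, 28.95 to 45.9 in MNA replicates 1, 3 and 4 and 3.19 in MNA replicate 2. Most of this sum was Gzma in the MNA libraries (34.8 CPM on average) and Klrb1c in the olaparib libraries (13.3 CPM), while Cd3e did not pass 0.601 CPM on average in any group. At that low level Cd3e was called higher with olaparib (3.59, adjusted p = 0.0276) and with MNA (4.16, adjusted p = 0.0192). Of 4 T and NK cell markers tested, 2 rose and 0 fell with olaparib, where 27.0% of all genes were called. With MNA 3 rose (Gzma, Nkg7 and Cd3e) and 1 fell (Klrb1c), where 28.6% were called. The 7 B cell markers summed to 1.59 to 3.52 CPM with DMSO, 3.71 to 9.04 with olaparib, 14.4 to 23.2 in MNA replicates 1, 3 and 4 and 3.04 in MNA replicate 2. Of 4 B cell markers tested, 0 were called with olaparib, and 4 rose and 0 fell with MNA, where 28.6% of all genes were called. Without MNA replicate 2, 1 rose with olaparib and 4 with MNA. The 7 eosinophil markers summed to 3.92 to 7.02 CPM with DMSO and 31.4 to 59.2 with olaparib, nearly all of it Siglecf (46.4 CPM). They summed to 7.08 to 10.1 CPM in MNA replicates 1, 3 and 4 and 5.01 in MNA replicate 2. Of the 2 tested, Siglecf and Ear6, 2 rose with olaparib, where 27.0% of all genes were called, and 0 were called with MNA. Ear6 rose by 2.07 (adjusted p = 0.0124), from 0.156 CPM on average with DMSO to 0.658. Among those too low to test, Ccr3 averaged 0.0318 CPM with DMSO and 0.298 with olaparib, while Prg2 and Epx had 0 in every olaparib library. The 10 dendritic cell markers summed to 1565 to 1800 CPM with DMSO, 2414 to 2673 with olaparib, 2017 to 2376 in MNA replicates 1, 3 and 4 and 1654 in MNA replicate 2. Nearly all of it was Itgax (1653 CPM on average with DMSO and 2545 with olaparib), which macrophages also express. Zbtb46 was not called with olaparib (log2 fold change 0.08, adjusted p = 0.685) and Xcr1 fell (−1.19, adjusted p = 0.0353). Ccr7 rose with olaparib (2.62, adjusted p = 0.0362) and with MNA (4.55, adjusted p = 0.0142). It averaged 0.231 CPM with DMSO, 1.46 with olaparib and 7.27 in MNA replicates 1, 3 and 4, and had 0.430 in MNA replicate 2. Of the 4 dendritic cell markers tested, 2 rose and 1 fell with olaparib, where 27.0% of all genes were called. With MNA 2 rose and 0 fell, where 28.6% were called. The 8 stromal markers summed to 0.905 to 1.84 CPM with DMSO, 1.94 to 4.46 with olaparib, 2.51 to 4.50 in MNA replicates 1, 3 and 4 and 1.86 in MNA replicate 2. Of 2 stromal markers tested, 1 rose with olaparib (Postn) and 1 with MNA (Pdgfrb), where 27.0% and 28.6% of all genes were called. The sums of the neutrophil (7.90 to 73.2 CPM), basophil and mast cell (5.63 to 10.1) and erythroid (0.0358 to 56.3) markers overlapped between DMSO and both treatments, with Mcpt4 and Hba-a2 at 0 in every library. The neutrophil sum reached 20.7 CPM with DMSO and ran from 10.6 to 73.2 in MNA replicates 1, 3 and 4. The erythroid sum reached 4.03 CPM with DMSO and ran from 0.386 to 56.3 in those MNA libraries. They spread widely, with S100a9 at 8.20 CPM on average (range 1.11 to 20.8) and Hba-a1 at 16.1 (range 0 to 48.3). Of 4 neutrophil markers tested with the 12 libraries, 0 were called with MNA. Without MNA replicate 2, 5 were tested, and 4 rose and 1 fell with MNA, where 54.1% of all genes were called. The part of these cells in the changes of the 9 genes was not tested.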

How the data were processed

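RNA was measured in 12 libraries of mouse BMDMs, 4 each with DMSO, olaparib and MNA. Per the study's methods and the submitters' processing notes, stranded mRNA libraries were sequenced single-end and aligned with STAR 2.5.2b to GRCm38.p5 with an Ensembl annotation. The authors deposited raw counts per Ensembl gene for each library, without normalization. Which of STAR's strand columns they took is not given in the sources used here.

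The 9 genes and the lists were chosen with earlier results of these data known, and no list served as independent evidence. The lists were written from general knowledge. Named are the 9 genes, the 3 genes most like each called member, and from each pathway list the 2 called genes with the smallest p in each comparison with DMSO. Other genes of the lists and the markers that are named were chosen after their values were seen, and 1 gene within the rule is not reported here.

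Genes were kept by filterByExpr (minimum count 10, minimum total 15), which left 12849. The main test was the quasi-likelihood F test of edgeR 4.0.16 (R 4.3.3) with TMM scaling, in 1 fit of the 12 libraries without a block, and p-values were adjusted by Benjamini-Hochberg over all tested genes. The SE was the log2 fold change divided by the square root of F. CPM were computed from TMM-normalized library sizes, and log2 CPM with a prior count of 2. The alternatives were DESeq2 1.42.0, 2 other normalizations, no filter, the replicate number as a block, the 2 groups alone, an adjusted p under 0.01, the length of the longest transcript, and each library left out. Fits of 2 groups without MNA replicate 2 were added after the data were seen. The fits were tested on simulated counts with set changes in the olaparib group, in which no library stood apart from its group. That run cannot show how the fits behave with a library like MNA replicate 2.

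To see whether replicate numbers pair libraries, each library's deviation from its group was correlated across genes with that of the same number in another group. Pearson r was 0.227, 0.172, 0.225 and 0.408 between olaparib and DMSO, which were taken as pairs. The main test did not use these pairs, and the block fits gave the replicate number to the MNA libraries as well. The values for MNA and DMSO ran from −0.00939 to 0.277 and these were not. Between olaparib and MNA they were 0.0696, 0.137, 0.131 and 0.392. The MNA deviations were taken from a mean that includes MNA replicate 2, so that they cannot decide whether the numbers pair the MNA libraries.

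Positions, exon lengths and names were read from GENCODE (GRCm38), which named 34490 of the 35275 gene IDs, and shared 31-base words from its transcripts. Promoters came from RefSeq (GRCm38.p6). Figures were drawn with Python 3.11.15 and matplotlib 3.10.9. At 21146291 to 31446849 counts per library, the lowest level of the 9 genes was 1.69 CPM.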

Additional observations from a re-analysis of the deposited data

Results flagged for a closer look

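In groups of 4 libraries, the highest or lowest library was set against Dixon's 95% critical value. Of 27 groups (9 genes in 3 treatments) 4 passed, where chance flags about 1 in 20. In 2 of them MNA replicate 2 was the library that stood off. It was the lowest for Stat2, at 46.1 CPM against 105 to 108 CPM in the other MNA libraries, and the highest for Socs3, at 12.3 CPM against 3.09 to 3.90 CPM. Its Socs1 level of 22.1 CPM was also the lowest of its group, with a gap below the critical value. The other 2 were olaparib replicate 4, the lowest for Stat6 at 251 CPM against 293 to 296 CPM, and olaparib replicate 2, the lowest for Socs2 at 21.9 CPM against 24.0 to 24.1 CPM, a gap that is small beside the difference from DMSO.

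The effects of the treatments differed by a direct test in 2 genes. Stat3 was lower with olaparib than with MNA by a log2 difference of −0.47 (adjusted p = 0.00279, edgeR), with 4 of 4 olaparib libraries below every MNA library. Socs1 was lower with olaparib by a log2 difference of −1.13 (adjusted p = 0.0295), with 2 of 4 olaparib libraries below every MNA library and 4 of 4 below MNA replicates 1, 3 and 4.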

How the results depend on the processing

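Against DMSO, olaparib called 2 members up and 2 down, and MNA 3 up and 1 down, while 0 were higher and 2 lower with olaparib than with MNA. DESeq2, both other normalizations and no filter kept the 4 olaparib calls. Leaving out 1 library gave 2 to 3 up and 2 to 2 down with olaparib, 0 to 5 up and 0 to 2 down with MNA, and 0 to 1 higher and 1 to 4 lower with olaparib than with MNA. For MNA these ends came from leaving out its replicate 3 (0 and 0) or its replicate 2 (5 and 2). At an adjusted p under 0.01, 1 member was up with olaparib, 0 up and 0 down with MNA, and 1 lower with olaparib than with MNA. In the fits of 2 groups alone, 0 members were up and 0 down with MNA (5 and 1 at an unadjusted p under 0.05) and 1 was lower with olaparib than with MNA, and also without MNA replicate 2 these became 5 up with MNA and 4 lower with olaparib.

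With the replicate block, 1 member, Cish, was higher with olaparib than with MNA (adjusted p = 0.0415), Cish was called against DMSO with olaparib (0.0401), and Stat5a with MNA (0.0228). These numbers were not taken to pair the MNA libraries. The block with MNA replicate 2 left out gave 4 up with olaparib, among them Stat5a (adjusted p = 0.0307), 5 up and 2 down with MNA, and 1 higher and 4 lower between the treatments. With the 12 libraries the block changed no other call.

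The change of Cish with MNA, −0.01, turned to 0.00 with upper-quartile factors or the 2 groups alone (0.00412 and 3.47e-04), to 0.043, 0.0082 and 0.029 without DMSO replicate 1, MNA replicate 2 and MNA replicate 3 (range over the libraries left out −0.055 to 0.043), and to 0.017 with the 2 groups alone without MNA replicate 2. That of Stat5a between the treatments turned to 0.0027 without MNA replicate 1, the highest value with 1 library left out (lowest −0.16). None was called. The cause of these shifts was not tested. Intervals and tests cover neither protein nor phosphorylation, and 4 libraries a group limit precision.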
